A study of Homo sapiens with 24 samples.

Results

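TRAIL is a death ligand of the tumour necrosis factor (TNF) family, and the present account follows its gene, its receptors and the related death receptors in HT29 cells. The 8 genes were TNFSF10, which encodes TRAIL itself; TNFRSF10A and TNFRSF10B, which encode the death receptors TRAIL-R1 (DR4) and TRAIL-R2 (DR5); TNFRSF10C and TNFRSF10D, which encode the decoy receptors DcR1 and DcR2; TNFRSF11B, which encodes the soluble decoy osteoprotegerin; and the death receptor genes FAS and TNFRSF1A. Members were all probes that carry one of these gene names on the array and are not controls, which gave 12 of 50599 probes. Probes were matched to these names without regard to their measured values. The 8 genes themselves were chosen with earlier results of these data known.

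HT29 cells derive from a human colon adenocarcinoma and are kept as an established line. Expression was measured after 6 h in untreated cells (NT) and under 5 treatments. C3/C2 was a mixture of propionate at 30 mM with acetate at 15 mM, and SN was culture supernatant of Propionibacterium freudenreichii, diluted 1 in 2, whose concentrations of both acids C3/C2 was made to match. TRAIL was given at 100 ng/ml with anti-Flag antibody at 2 µg/ml, either alone or together with one of the former, as TRAIL+C3/C2 or TRAIL+SN. Each of the 6 groups had 4 one-colour Agilent arrays, numbered 1 to 4, and per the methods these came from 2 independent experiments in duplicate, without a label that says which numbers belong together. An n of 4 therefore holds duplicates, and p values measure the spread between arrays, part of which may be technical and which may make them too small. All groups share 1 cell line, and the controls received neither acid, supernatant, TRAIL nor antibody.

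A TRAIL trimer binds TRAIL-R1 or TRAIL-R2 on the cell surface, and the death domains of these receptors recruit FADD and caspase-8, which starts the extrinsic pathway of apoptosis. The decoy receptors bind the same ligand without passing on the full death signal, because DcR1 has no intracellular part, DcR2 has a truncated death domain and osteoprotegerin is secreted. Fas and TNF receptor 1 carry death domains too, but bind Fas ligand and TNF. Colon cancer cells differ in how they respond to TRAIL, and the number and kind of these receptors on their surface is one of the features studied for this reason.

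The level of a probe is the log2 ratio of its intensity to the array's 75th percentile, so that 0 stands for the intensity at that percentile and 1 unit for a 2-fold difference. Levels of different probes were not compared with each other, since probes differ in how brightly they hybridise. A difference passed the test when its adjusted p, from a limma fit over all 27957 probes that passed the filter on dim probes, was under 0.05, and it was called when it also reached 2-fold. The words rose and fell are used of differences that passed the test. Of the 12 member probes, 11 passed the filter. The exception was the third probe of TNFSF10, for transcript variant 3, which was well above background on 2 of 24 arrays and is not described further. All 12 colon epithelial markers examined (among them EPCAM, CDH1, KRT20, VIL1 and CDX2) were well above background on all 24 arrays, whereas the fibroblast markers COL1A2, COL3A1 and DCN were so on none. Of 5 leukocyte markers, PTPRC, CD14 and CD68 were well above background on all arrays, with log2 levels of −4.10, 0.75 and −1.43 in NT, and so were the endothelial markers PECAM1, VWF and CDH5, at −4.13, −3.92 and −3.38.

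The arrays lay on 4 slides, and this arrangement limits what the comparisons can separate. NT and C3/C2 shared slides 1 and 2, SN and TRAIL shared slide 3, and both co-treatments shared slide 4. For SN, TRAIL and the co-treatments the slide and the difference from NT therefore cannot be told apart, and neither can the slide and the difference between SN and C3/C2 or between a co-treatment and a single treatment, whereas C3/C2 against NT, SN against TRAIL and TRAIL+SN against TRAIL+C3/C2 were compared within slides. On each slide, however, every group lay in a row of its own. In the comparisons within slides, row and group therefore cannot be told apart. NT arrays were brighter, with a median of 883 for the intensity at the 75th percentile, than TRAIL+C3/C2 arrays, with 503, and between 49.8% and 57.8% of probes were well above background on an array.

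**Figure D1:**
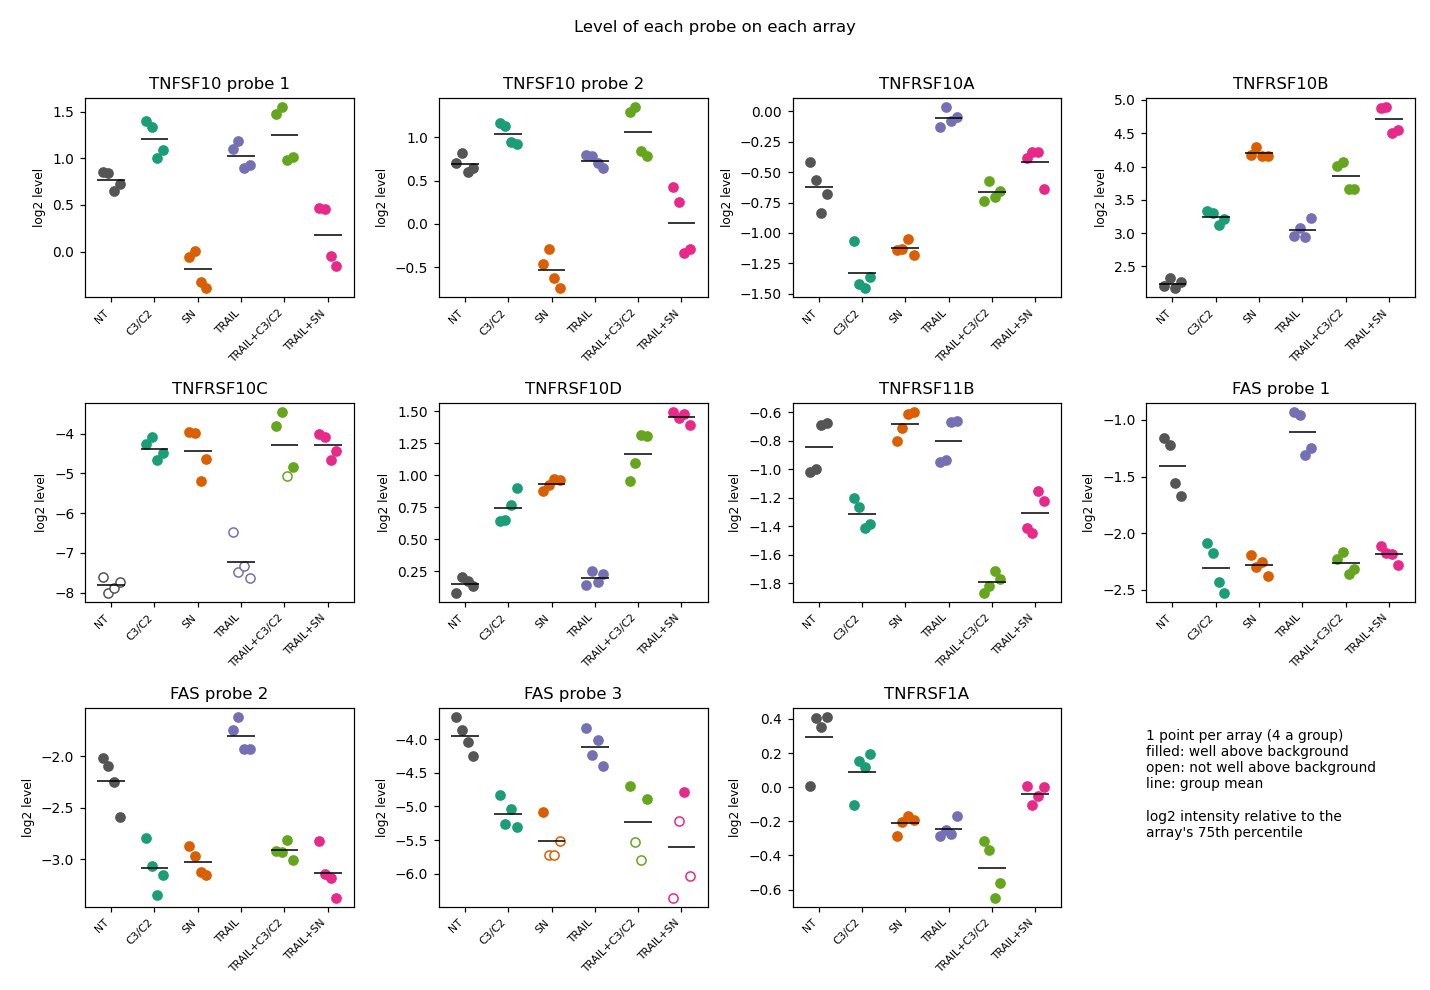
Level of each member probe on each array, in log2 units above or below that percentile, with 4 points for each of the 6 groups on the horizontal axis and a line at the group mean. Filled points were well above background and open points were not. TNFRSF10B stood at 2.17 to 2.32 on the NT arrays and at 4.51 to 4.89 on the TRAIL+SN arrays, and TNFRSF10C was well above background on none of the NT and TRAIL arrays.

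TNFRSF10B rose with all 5 treatments, more with SN than with C3/C2 or TRAIL, and most with TRAIL+SN. The gene is on chromosome 8, and its probe A_24_P218265 lies at chr8:22877776-22877835 on hg19, on the minus strand. The level on the 4 NT arrays, in the order of their numbers, was 2.20, 2.32, 2.17 and 2.26. With C3/C2 it was 3.33, 3.31, 3.12 and 3.21, and with SN it was 4.18, 4.30, 4.16 and 4.16. The lowest C3/C2 array lay above the highest NT array, and the lowest SN array above the highest C3/C2 array. In RNA from whole cultures, a large change in some cells and a smaller one in all of them cannot be told apart.

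With TRAIL alone the TNFRSF10B level was 2.95, 3.07, 2.94 and 3.22, a range that overlapped with that of C3/C2. With TRAIL+C3/C2 it was 4.01, 4.07, 3.66 and 3.67, and with TRAIL+SN 4.88, 4.89, 4.51 and 4.55. In both co-treatments replicates 1 and 2 thus stood above replicates 3 and 4. Ordered by mean level, the groups were NT (2.24 ± 0.06, SD, n = 4), TRAIL (3.05 ± 0.13), C3/C2 (3.24 ± 0.10), TRAIL+C3/C2 (3.85 ± 0.22), SN (4.20 ± 0.07) and TRAIL+SN (4.71 ± 0.21). Among these neighbours TRAIL and C3/C2 overlapped (exact permutation p = 0.0857, two-sided), and the other 4 pairs did not. The exact permutation p of those pairs was 0.0286, the smallest that 4 arrays against 4 allow, and 0.0748 after adjustment over the 55 pairs of neighbours compared for all member probes.

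In the limma fit the log2 difference of TNFRSF10B from NT was 1.01 ± 0.10 (SE) with C3/C2, which is 2.01-fold (adjusted p = 2.41e-08), and 1.96 ± 0.10 with SN, which is 3.88-fold (adjusted p = 4.86e-13). TRAIL alone gave 0.81 ± 0.10 or 1.75-fold (adjusted p = 5.17e-06), which passed the test without reaching 2-fold. The co-treatments gave 1.61 or 3.06-fold with C3/C2 (adjusted p = 1.12e-11) and 2.47 or 5.53-fold with SN (adjusted p = 1.03e-14). TNFRSF10B was therefore called in 4 of the 5 treatments, and in C3/C2 it stood at the limit of 2-fold. Its difference with C3/C2 was 0.71 with scaling to the array median and between 0.98 and 0.99 without NT replicate 1 or 3 or without C3/C2 replicate 1 or 2, where it was no longer called. Within slide 2 alone, the value for C3/C2 was 0.96 (adjusted p = 0.000164), and the 2 arrays of slide 1 differed by 1.13.

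TNFRSF10A, the gene of the other death receptor of TRAIL, did not share this pattern. Its probe lies at chr8:23049253-23049312 on the minus strand (hg19). NT arrays read −0.42, −0.57, −0.84 and −0.68, C3/C2 arrays −1.07, −1.42, −1.46 and −1.36, and SN arrays −1.14, −1.13, −1.05 and −1.18. All C3/C2 and SN arrays were below all NT arrays. The TRAIL arrays, at −0.13, 0.03, −0.08 and −0.05, were above all NT arrays.

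TNFRSF10A thus fell with C3/C2 (log2 difference −0.70 ± 0.09, adjusted p = 8.03e-07) and with SN (−0.50 ± 0.09, adjusted p = 4.94e-05), and rose with TRAIL (0.57 ± 0.09, adjusted p = 7.31e-05). None of these differences reached 2-fold. The value for TRAIL was 0.32 with the spike-in probes (adjusted p = 0.069). In the co-treatments the differences from NT were −0.04 (adjusted p = 0.703) for TRAIL+C3/C2 and 0.21 (adjusted p = 0.0489) for TRAIL+SN, whose arrays overlapped with those of NT. These values moved with the scaling. TRAIL+C3/C2 was at −0.39 with the array median (adjusted p = 0.000581) and −0.74 with the spike-in probes (adjusted p = 1.67e-05), below NT, and TRAIL+SN was at −0.30 with the spike-in probes, on the other side of 0. Both departures from the sum of the single treatments were small and did not pass the test (0.09 and 0.14, adjusted p = 0.82 and 0.49). On slide 3, which held SN and TRAIL alone, TNFRSF10A was lower with SN than with TRAIL by a log2 difference of −1.07 (adjusted p = 1.25e-09), while TNFRSF10B was higher by 1.15 (adjusted p = 2.75e-09). In that comparison 12.9% of all probes were called higher and 8.05% lower with SN.

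The decoy receptor gene TNFRSF10C went from below detection to detection with the acids and with the supernatant. Its probe lies at chr8:22974483-22974542 on the plus strand (hg19). Among NT arrays 0 of 4 and among TRAIL arrays 0 of 4 had it well above background, against 4 of 4 in C3/C2, SN and TRAIL+SN and 3 of 4 in TRAIL+C3/C2. The measured levels were −7.61, −8.01, −7.88 and −7.74 in NT. They were −4.26, −4.08, −4.67 and −4.48 with C3/C2, and −3.96, −3.97, −5.18 and −4.64 with SN. These are dim signals, with intensities of 22.0 to 53.1 on the arrays of C3/C2 and SN.

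Since NT gave no measured level above background, the change of TNFRSF10C has only a lower bound, computed against the lowest signal that was well above background on each NT array. C3/C2 gave a level at least 2.55-fold higher and SN one at least 2.44-fold higher, and each co-treatment was at least 2.70-fold higher than NT. The adjusted p values of 8.00e-09, 8.69e-09, 4.43e-09 and 4.08e-09 belong to the fit on the measured values, in which NT lies below background, and are not a test of these bounds. The probe passed the filter only through the groups in which it was high. Against TRAIL alone, TRAIL+C3/C2 and TRAIL+SN were each at least 2.20-fold higher. SN and C3/C2 did not differ beyond the spread (log2 difference −0.07, 95% confidence interval −0.74 to 0.61), an interval that holds sizeable differences in either direction. With normexp background correction, which compresses dim signals, the fitted log2 difference from NT was 0.67 with C3/C2 and 0.77 with SN, in place of 3.44 and 3.37.

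The second membrane decoy, TNFRSF10D, changed by less and in a graded order. Its probe lies at chr8:22993127-22993186 on the minus strand (hg19). The level was 0.08, 0.21, 0.18 and 0.14 in NT and 0.14, 0.26, 0.17 and 0.23 with TRAIL, so that these groups overlapped. C3/C2 gave 0.65, 0.66, 0.77 and 0.90, and SN gave 0.88, 0.92, 0.98 and 0.96. The highest levels were those of TRAIL+C3/C2 (0.95, 1.10, 1.32 and 1.31) and TRAIL+SN (1.50, 1.45, 1.48 and 1.39).

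TNFRSF10D rose with C3/C2 (log2 difference 0.59 ± 0.07, adjusted p = 2.87e-07) and SN (0.78 ± 0.07, adjusted p = 3.43e-09), in both cases by less than 2-fold, and the difference with TRAIL alone was 0.05 (adjusted p = 0.662). It was called in TRAIL+C3/C2 (1.02, adjusted p = 5.37e-11) and TRAIL+SN (1.30, adjusted p = 8.65e-13). The call in TRAIL+C3/C2 rests on the limit of 2-fold, since the value was 0.67 with the array median, 0.32 with the spike-in probes and 0.995, 0.97 and 0.973 without NT replicate 1 or without replicate 3 or 4 of TRAIL+C3/C2, respectively.

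TNFRSF11B, the gene of the secreted decoy, was the decoy gene with lower levels after treatment. Its probe lies at chr8:119936720-119936779 on the minus strand (hg19) and was spotted 10 times on each array. NT arrays read −1.02, −0.999, −0.69 and −0.68, and C3/C2 arrays −1.20, −1.26, −1.41 and −1.38. SN arrays read −0.80, −0.71, −0.61 and −0.60, and TRAIL arrays −0.95, −0.93, −0.67 and −0.67, and both groups overlapped with NT. TRAIL+C3/C2 arrays lay lowest, at −1.87, −1.82, −1.72 and −1.77, and TRAIL+SN arrays at −1.41, −1.45, −1.15 and −1.23.

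TNFRSF11B fell with C3/C2 (log2 difference −0.47 ± 0.09, adjusted p = 0.000164), with TRAIL+C3/C2 (−0.95 ± 0.09, adjusted p = 1.18e-08) and with TRAIL+SN (−0.47 ± 0.09, adjusted p = 0.000151). The differences with SN (0.16, adjusted p = 0.125) and TRAIL (0.04, adjusted p = 0.791) did not pass the test. None of these values reached 2-fold, although that for TRAIL+C3/C2 was −1.30 with the array median, −1.10 with quantile normalization, −1.64 with the spike-in probes and −1.01 without NT replicate 1.

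The ligand gene TNFSF10 separated SN from C3/C2. Its 2 measured probes target transcript variant 1 at chr3:172223866-172223925 and chr3:172224226-172224285 on the minus strand (hg19), do not overlap, and gave the same order of groups. Probe 1, which was spotted 10 times on each array, read 0.86, 0.84, 0.65 and 0.73 in NT. It read 1.40, 1.33, 1.00 and 1.09 with C3/C2, and −0.05, 0.00, −0.32 and −0.39 with SN. All C3/C2 arrays were thus above NT and all SN arrays below NT.

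With TRAIL, probe 1 of TNFSF10 read 1.10, 1.18, 0.89 and 0.93. TRAIL+C3/C2 gave 1.48, 1.55, 0.98 and 1.01, and TRAIL+SN 0.47, 0.45, −0.04 and −0.16. In each of the 6 groups, replicates 1 and 2 stood above replicates 3 and 4 for both probes, by a mean of 0.35 for probe 1 and 0.32 for probe 2, and this split was as wide as several of the differences between groups. The spots of probe 1 on one array had a median SD of 0.07, which is less than that split.

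TNFSF10 fell with SN, by a log2 difference of −0.96 ± 0.15 for probe 1 (adjusted p = 1.02e-05) and −1.23 ± 0.15 for probe 2 (adjusted p = 3.81e-07), of which the second was called. With C3/C2 the values were 0.44 (adjusted p = 0.0168) and 0.35 (adjusted p = 0.0528), and with TRAIL 0.26 (adjusted p = 0.22) and 0.04 (adjusted p = 0.881). TRAIL+SN gave −0.59 and −0.68 (adjusted p = 0.00176 and 0.000468), and TRAIL+C3/C2 gave 0.49 and 0.37 (adjusted p = 0.00782 and 0.0356). For C3/C2 the value of probe 1 was 0.14 with the array median (adjusted p = 0.414) and 0.24 with the spike-in probes (adjusted p = 0.35), so that a rise was not established. The direction of the TRAIL+C3/C2 values depended on the scaling, since they were −0.21 and −0.32 with the spike-in probes.

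The 250 bases that precede the start of TNFSF10 and those that precede the most upstream start of FAS are shown because TNFSF10 differed between SN and C3/C2 by more than 2-fold and no difference between them passed the test for FAS. They are RefSeq sequences on GRCh38.p14, at chr3:172523431-172523680 on the minus strand and at chr10:88990548-88990797 on the plus strand, of 35116 such windows read. Capitals mark every match, on either strand, to 6 motifs: the GC box GGGCGG, the core GCGTG of the xenobiotic response element, the AP-1 site TGANTCA, the TATA box TATAAA, the NF-kB site (by its name alone) and an amino acid response element TGATGNAA.
TNFSF10: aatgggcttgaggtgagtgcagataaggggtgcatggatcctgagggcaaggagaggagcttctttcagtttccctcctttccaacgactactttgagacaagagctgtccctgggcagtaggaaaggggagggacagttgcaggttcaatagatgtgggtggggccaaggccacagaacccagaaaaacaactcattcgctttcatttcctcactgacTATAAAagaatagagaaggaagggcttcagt
FAS: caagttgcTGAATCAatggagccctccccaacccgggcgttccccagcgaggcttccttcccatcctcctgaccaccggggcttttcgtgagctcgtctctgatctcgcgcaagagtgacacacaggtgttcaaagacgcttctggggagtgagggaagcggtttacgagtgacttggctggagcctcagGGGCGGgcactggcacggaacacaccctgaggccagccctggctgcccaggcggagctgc

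The TNFSF10 window holds a TATA box that begins 31 bases before the start and no match to the other 5 motifs, and TATAAA is found in 10.7% of all windows. The FAS window holds a TGANTCA match 242 bases and a GC box 60 bases before the start, and these letters are found in 6.57% and 42.6% of windows. GCGTG is found in 32.2%, the NF-kB site in 0.527% and TGATGNAA in 3.14% of windows, and in neither of the 2 shown. The window before TNFRSF1A holds none of the 6. A match is only a match of letters in this window, and no binding was measured.

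FAS, which encodes the receptor of Fas ligand, fell with C3/C2 and with SN by nearly the same amount, and was low in both co-treatments too. Probes 1 and 2 lie at chr10:90774545-90774604 and chr10:90774517-90774576 on the plus strand (hg19) and share 32 bases, so that they are not independent. Probe 3, upstream of them at chr10:90774148-90774207, is shown because it covers the end of the coding sequence, read in its first frame as 20 codons with the stop codon in capitals.
FAS probe 3: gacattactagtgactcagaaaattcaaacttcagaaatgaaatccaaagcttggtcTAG

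FAS probe 1 read −1.16, −1.22, −1.56 and −1.67 in NT and −0.93, −0.95, −1.31 and −1.25 with TRAIL. It read −2.09, −2.18, −2.43 and −2.53 with C3/C2, and −2.19, −2.30, −2.25 and −2.38 with SN. The co-treatments lay in the same range as C3/C2 and SN, at −2.23, −2.16, −2.36 and −2.32 where TRAIL was combined with the acids and −2.11, −2.18, −2.19 and −2.28 where it was combined with SN. The 6 groups thus fell into NT and TRAIL at the top and the 4 groups with acids or supernatant below them, with no overlap between these sets.

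The log2 difference of FAS probe 1 from NT was −0.90 ± 0.11 with C3/C2 (adjusted p = 5.91e-07), −0.88 with SN (adjusted p = 7.10e-07), −0.87 with TRAIL+C3/C2 (adjusted p = 8.94e-07) and −0.79 with TRAIL+SN (adjusted p = 3.08e-06). Relative to TRAIL alone, TRAIL+C3/C2 gave −1.16 (adjusted p = 1.48e-08) and TRAIL+SN −1.08 (adjusted p = 3.78e-08), and both were called. SN and C3/C2 did not differ beyond the spread, with 0.02 for probe 1 (adjusted p = 0.886) and 0.06 for probe 2 (adjusted p = 0.747). TRAIL alone gave 0.29 for probe 1 (adjusted p = 0.0569) and 0.43 for probe 2 (adjusted p = 0.0151).

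FAS probe 3 was dimmer and gave larger falls, of −1.16 with C3/C2 (adjusted p = 0.00117), −1.56 with SN (adjusted p = 4.81e-05), −1.27 with TRAIL+C3/C2 (adjusted p = 0.000418) and −1.64 with TRAIL+SN (adjusted p = 2.38e-05), all called. It was well above background on all NT, C3/C2 and TRAIL arrays, but on 1 of 4 arrays of SN, 2 of 4 of TRAIL+C3/C2 and 1 of 4 of TRAIL+SN, so that its values there are partly set by the background. With normexp correction its difference was −0.38 with C3/C2, −0.46 with SN, and in the co-treatments 0.06 with the acids and −0.03 with the supernatant.

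TNFRSF1A, which encodes TNF receptor 1, fell by less than 2-fold with all 5 treatments. Its probe lies at chr12:6438064-6438123 on the minus strand (hg19) and was spotted 10 times on each array. NT arrays read 0.01, 0.40, 0.35 and 0.41, and the low value belongs to replicate 1, which was hybridised on slide 1. C3/C2 arrays read −0.10, 0.15, 0.12 and 0.19, also with replicate 1, on slide 1, as the lowest. SN arrays read −0.29, −0.20, −0.17 and −0.19, and TRAIL arrays −0.29, −0.25, −0.27 and −0.17. TRAIL+C3/C2 gave −0.32, −0.37, −0.65 and −0.56, and TRAIL+SN 0.01, −0.11, −0.05 and 0.00.

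The log2 differences of TNFRSF1A from NT were −0.20 with C3/C2 (adjusted p = 0.0482, with overlapping arrays), −0.51 with SN (adjusted p = 2.75e-05), −0.54 with TRAIL (adjusted p = 9.00e-05), −0.77 with TRAIL+C3/C2 (adjusted p = 1.02e-07) and −0.33 with TRAIL+SN (adjusted p = 0.00197). The TRAIL+SN arrays overlapped with those of NT, but only through NT replicate 1. For TRAIL+C3/C2 the value was beyond 2-fold with the array median (−1.11, adjusted p = 8.36e-09) and the spike-in probes (−1.46, adjusted p = 2.17e-08).

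**Figure D2:**
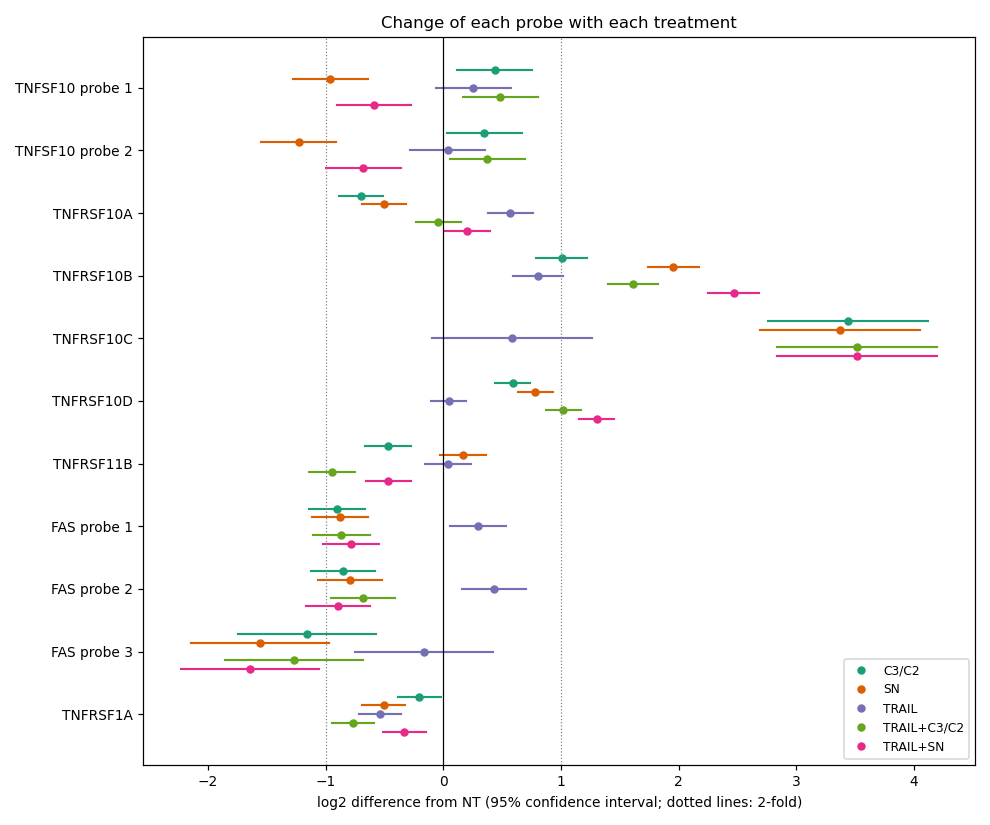
Log2 difference of each member probe from NT with each of the 5 treatments, as points with 95% confidence intervals from the limma fit. Dotted lines mark 2-fold. TNFRSF10B lies between 0.81 and 2.47, FAS probes 1 and 2 lie below 0 in all treatments with acids or supernatant, and TNFSF10 lies above 0 with C3/C2 and below 0 with SN.

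Counted over the 11 probes, C3/C2 gave 2 called higher and 1 lower, beside 13.3% of all 27957 probes called higher and 6.22% lower. SN gave 2 higher and 2 lower, beside 14.1% and 9.69% of all probes, and TRAIL 0 of either, beside 0.723% and 2.11%. TRAIL+C3/C2 gave 3 higher and 1 lower (16.4% and 8.12% of all probes), and TRAIL+SN also 3 and 1 (16.1% and 10.2%). At any size of difference, the limma test was passed by 4 member probes upwards and 6 downwards with C3/C2 (34.9% and 28.3% of all probes), by 3 and 7 with SN (35.2% and 33.8%), by 3 and 1 with TRAIL (19.3% and 12.1%), by 5 and 5 with TRAIL+C3/C2 (40.1% and 29.4%) and by 4 and 7 with TRAIL+SN (37.7% and 32.6%). TNFRSF10C is among the probes called higher in all treatments with acids or supernatant, and it passed the filter only through groups in which it was high. The dim probe 3 of FAS is among those called lower in the same treatments. Probes of FAS and TNFSF10 count more than once here, and with so few probes these counts set nothing apart from the whole array. The median log2 difference of the member probes was −0.20, −0.51, 0.26, −0.04 and −0.47 in the order of treatments above, and that of all probes 0.07, −0.01, 0.04, 0.10 and 0.05.

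The supernatant was next compared directly with the acids. Without TRAIL these groups lay on different slides, so that slide and difference cannot be told apart. TNFSF10 was lower with SN than with C3/C2 by a log2 difference of −1.40 for probe 1 (2.63-fold, adjusted p = 3.21e-07) and −1.58 for probe 2 (2.98-fold, adjusted p = 6.95e-08). Both probes were called, and 4.28% of all probes were called lower in this comparison. TNFRSF10B was higher with SN by 0.95 ± 0.10 (1.93-fold, adjusted p = 2.63e-07), just under the 2-fold limit, and 1.21% of all probes were called higher. At any size, 3 member probes passed the test upwards and 3 downwards, beside 21.4% and 24.1% of all probes. With scaling to the array median, this difference was 1.12.

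On slide 4, where TRAIL+SN and TRAIL+C3/C2 lay side by side, TNFSF10 was again lower with SN, by −1.07 (adjusted p = 1.38e-05) and −1.05 (adjusted p = 1.76e-05) for its 2 probes, beside 2.5% of all probes called lower. Both calls were lost, at values from −0.94 to −0.999, when replicate 1 or 2 of TRAIL+C3/C2 or replicate 3 or 4 of TRAIL+SN was left out, and the differences kept an adjusted p of at most 0.000122 there. They were also lost with the array median (−0.92 and −0.90), with the spike-in probes (−0.89 and −0.87) and with normexp correction (−0.989 and −0.986). TNFRSF10B was higher by 0.85 (adjusted p = 1.73e-06), and by 1.01 with the array median and 1.04 with the spike-in probes, where 0.984% of all probes were called higher. At any size, 5 member probes passed upwards and 2 downwards, beside 15.7% and 21.4% of all probes. TNFRSF11B was higher with supernatant than with acids both without TRAIL (0.63, adjusted p = 1.36e-05) and with TRAIL (0.48, adjusted p = 0.000371).

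TNFRSF1A was the probe for which this comparison differed with and without TRAIL. It was lower with SN than with C3/C2 in the absence of TRAIL (−0.30, adjusted p = 0.00748) and higher in its presence (0.43, adjusted p = 0.000523). The value without TRAIL was −0.13 with the array median (adjusted p = 0.338) and −0.03 with the spike-in probes (adjusted p = 0.884), so that its side of 0 was not established, and it compares slide 3 with slides 1 and 2. The difference between these values was 0.74 ± 0.12 (adjusted p = 0.000491), where 6% of all probes passed the test upwards and 7.11% downwards. For the other 10 probes this difference lay between −0.28 and 0.52 and did not pass the test (adjusted p of at least 0.122).

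**Figure D3:**
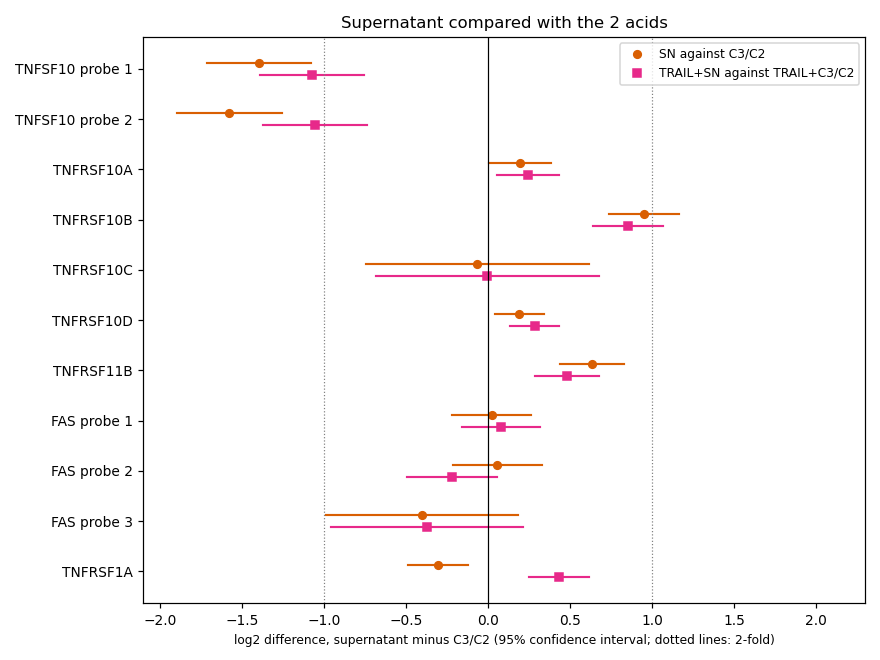
Log2 difference between supernatant and C3/C2 for each member probe, without TRAIL (circles) and with TRAIL (squares), with 95% confidence intervals from the limma fit and dotted lines at 2-fold. TNFSF10 lies at −1.40 and −1.58 without TRAIL and at −1.07 and −1.05 with TRAIL, and TNFRSF1A lies on opposite sides of 0.

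Finally, each co-treatment was compared with TRAIL alone, with its own agent alone and with the effects of TRAIL and that agent added up in log2 units. Relative to TRAIL alone, TRAIL+SN raised TNFRSF10B by 1.66 (adjusted p = 7.17e-12) and TNFRSF10D by 1.26 (adjusted p = 1.85e-12), and TRAIL+C3/C2 raised them by 0.81 (adjusted p = 5.87e-07) and 0.97 (adjusted p = 1.38e-10). The value of 0.81 was 0.36 with the array median (adjusted p = 0.00214) and 0.37 with the spike-in probes (adjusted p = 0.062). In this comparison 3 member probes were called higher and 3 lower with TRAIL+SN, beside 14.2% and 8.14% of all probes, and 1 higher and 3 lower with TRAIL+C3/C2, beside 14.7% and 6.23%. TNFRSF10C was called higher with both co-treatments here, and it passed the filter only through groups in which it was high. At any size, all 11 passed with TRAIL+SN, 4 upwards and 7 downwards (35.7% and 31.8% of all probes), and 9 with TRAIL+C3/C2, 3 upwards and 6 downwards (37.1% and 28.6%). Against SN alone, TRAIL+SN raised TNFRSF10B by 0.51 (adjusted p = 0.00153) and TNFRSF10A by 0.71 (adjusted p = 1.74e-05), and no member probe was called, beside 0.869% and 0.2% of all probes. The value for TNFRSF10B was −0.07 with the spike-in probes, on the other side of 0. Against C3/C2 alone, TRAIL+C3/C2 gave 0.61 for TNFRSF10B (adjusted p = 0.000105) and 0.66 for TNFRSF10A (adjusted p = 1.06e-05), with no call either, beside 1.53% higher and 2.1% lower among all probes. With the spike-in probes these values were 0.11 (adjusted p = 0.582) and 0.16 (adjusted p = 0.268), and that of TNFRSF10A against SN was 0.12 (adjusted p = 0.374). At any size, 3 member probes passed upwards and 2 downwards there (21.4% and 13.2% of all probes), and 4 and 1 against SN alone (11.9% and 7.78%).

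For TNFRSF10B both co-treatments were somewhat below the sum of the single treatments. The sum of C3/C2 and TRAIL was 1.81 and the measured value 1.61, and the sum of SN and TRAIL was 2.76 and the measured value 2.47. The departures of −0.20 ± 0.14 (adjusted p = 0.572) and −0.30 ± 0.14 (adjusted p = 0.155) did not pass the test, with 95% confidence intervals from −0.50 to 0.10 and from −0.60 to 0.01. With the array median the departure with SN was −0.46 and passed (adjusted p = 0.0158), and with the spike-in probes it was −0.63 (adjusted p = 0.0528).

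For the decoy gene TNFRSF10C a departure cannot be judged, since it was well above background on no NT or TRAIL array. Its fitted values were −0.50 with C3/C2 (adjusted p = 0.683) and −0.44 with SN (adjusted p = 0.549), and they rest on background signals. With normexp correction the value with C3/C2 was 0.17. Of the other decoys, TNFRSF10D and TNFRSF11B departed from the sum. TNFRSF10D exceeded it by 0.38 with C3/C2 (adjusted p = 0.0497) and by 0.47 with SN (adjusted p = 0.00224), and TNFRSF11B fell below it by −0.52 (adjusted p = 0.0404) and −0.67 (adjusted p = 0.00125). TNFRSF1A exceeded the sum by 0.71 with SN (adjusted p = 0.000409), since SN and TRAIL alone summed to −1.04 and TRAIL+SN was measured at −0.33. FAS probe 2 fell below the sum by −0.54 with SN (adjusted p = 0.0433), whereas the overlapping probe 1 gave −0.20 (adjusted p = 0.419). None of the departures reached 2-fold, as 0.458% of all probes did upwards and 0.15% downwards for C3/C2 and 2.6% and 0.379% for SN. In the interaction of TRAIL and C3/C2, 1.52% of all probes passed the test upwards and 0.905% downwards, and in that of TRAIL and SN 10.1% and 11.5%. The departure of TNFRSF10D with C3/C2 was lost with the array median (0.23, adjusted p = 0.357), quantile normalization (0.34, adjusted p = 0.0798), the spike-in probes (0.13, adjusted p = 0.636) and normexp (0.31, adjusted p = 0.0611), and that with SN with the array median (0.31, adjusted p = 0.105). That of TNFRSF11B with C3/C2 was lost with the spike-in probes (−0.77, adjusted p = 0.0874) and normexp (−0.31, adjusted p = 0.101), and that of FAS probe 2 with normexp (−0.26, adjusted p = 0.123). With the spike-in probes, the departures of TNFRSF10D and TNFRSF1A with SN were 0.14 (adjusted p = 0.537) and 0.38 (adjusted p = 0.197), and that of TNFRSF11B was −1.001 (adjusted p = 0.00157). Since the 4 groups of each interaction lie on different slides, slide and departure cannot be told apart.

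**Figure D4:**
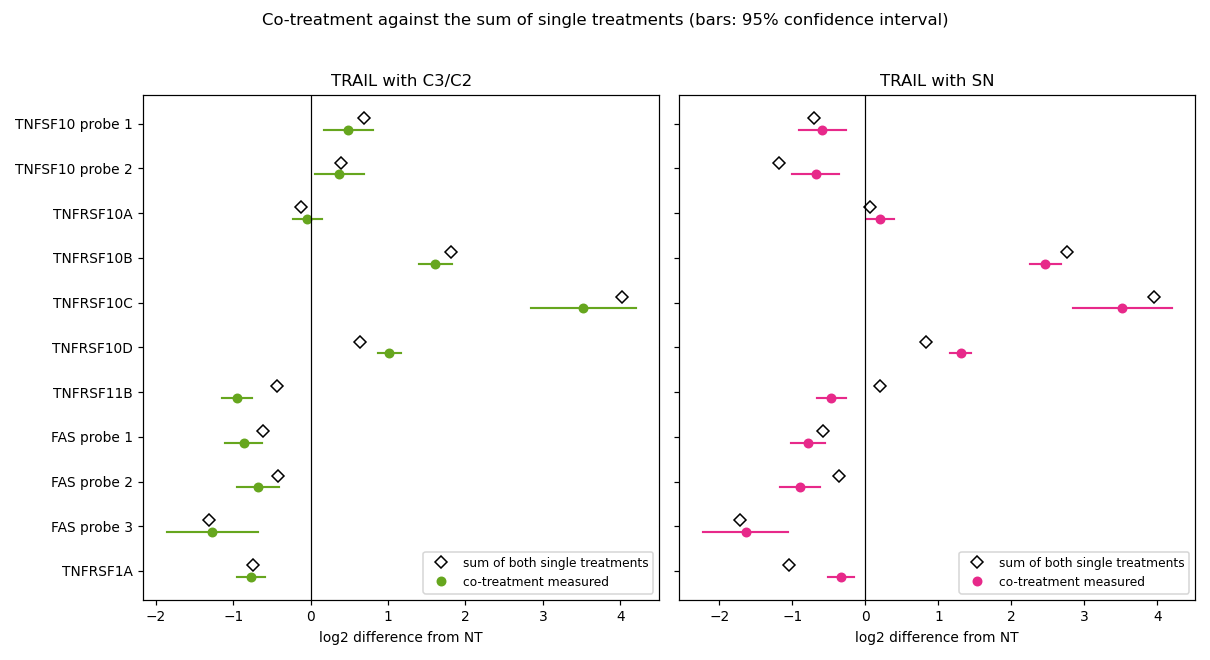
Log2 difference from NT measured in TRAIL+C3/C2 (left) and TRAIL+SN (right) for each member probe, as points with 95% confidence intervals from the limma fit, and the sum of both single treatments as open diamonds. For TNFRSF10D the measured 1.30 with SN lies above the sum of 0.83, and for TNFRSF11B the measured −0.47 lies below the sum of 0.20.

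The related genes of the family and of the pathway were read from 8 lists, with 1 probe per gene. Of 3 other death receptors tested, TNFRSF25 (death receptor 3) and NGFR were called higher with C3/C2, and these and TNFRSF21 (death receptor 6) with SN, and none was lower. TNFRSF25 rose by 1.57 with C3/C2 (adjusted p = 5.12e-11) and by 1.90 with SN (adjusted p = 1.80e-12). NGFR was well above background on no NT array so that its rise has a bound, of at least 1.82-fold in C3/C2 and at least 2.43-fold in SN. Calls among all 20703 genes made up 13.5% (higher) and 6.18% (lower) for C3/C2, and for SN they made up 14.2% and 9.75%.

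Of 4 other ligands of death receptors tested, TNF was the gene that stood out with TRAIL. It was well above background on no NT array, so that its rise has only lower bounds. These bounds were 19-fold for TRAIL alone, 141-fold in the co-treatment with the acids and 156-fold in that with the supernatant. In the same order, the limma fit on the measured values gave adjusted p values of 8.81e-13, 3.80e-17 and 2.16e-17. In that fit NT lies below background, so these p values do not test the bounds. With TRAIL alone, 0.744% of genes were called higher and 2.18% lower. Among 13 other receptors of the family, 5 were called higher with C3/C2, 7 with SN, 2 with TRAIL and 8 with each co-treatment, and 1, TNFRSF14, lower with TRAIL+C3/C2 (of all genes, 16.3% were higher and 7.94% lower in that treatment, and 16.1% and 10.1% under TRAIL+SN). RELT rose by 1.17 with the acids and 1.77 with the supernatant, and by 1.74 and 2.34 when TRAIL was added to them, and TNFRSF6B, the gene of decoy receptor 3, which binds Fas ligand, rose with TRAIL by 2.43 (adjusted p = 1.78e-08). The median log2 difference of these 13 receptor genes was 0.66 with C3/C2 and 1.09 with SN, against 0.08 and −0.02 for all genes. TNFRSF18 and TNFRSF9, which enter these counts and medians, were well above background on no NT array. They passed the filter only through groups in which they were high, which favours rises. Of 6 other ligands of the family, 3 were called higher with C3/C2, with TNFSF9 (the 4-1BB ligand) at 4.60, and LTB (lymphotoxin beta) rose by 5.36 with TRAIL.

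Of 21 genes of the receptor complex tested, 2 were called higher and 3 lower with both C3/C2 and SN. CASP8, the initiator caspase, fell by 1.14 with C3/C2 (adjusted p = 1.06e-10) and by 1.02 with SN (adjusted p = 4.97e-10), and FAIM, an inhibitor of Fas-mediated apoptosis, fell by 2.12 and 2.13. BIRC3 and TNFAIP3 were called higher in all 5 treatments, at 3.36 and 2.89 with TRAIL and 5.62 and 5.54 with TRAIL+SN. Of 11 genes downstream of the complex, 1 was called higher and 0 lower with C3/C2, and 2 higher and 1 lower with SN. BAK1 was called higher with C3/C2 (1.05) and SN (1.62). Of 12 genes of receptor transport and shedding ADAM10, a membrane protease, was called higher with C3/C2 (1.20) and not with SN.

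Of 16 regulators of the TRAIL receptor and ligand genes, 1 was called higher and 2 lower with C3/C2, 4 higher and 2 lower with SN, 1 higher with TRAIL, 4 higher with TRAIL+C3/C2 and 6 higher with TRAIL+SN. The shares of all genes called higher were 13.5%, 14.2%, 0.744%, 16.3% and 16.1% in this order, and those called lower 6.18%, 9.75%, 2.18%, 7.94% and 10.1%. With so few genes these counts set nothing apart from all genes. DDIT3, which encodes the stress-induced factor CHOP, rose by 3.78 ± 0.31 with SN (adjusted p = 6.72e-10) and by 3.60 with TRAIL+SN (adjusted p = 1.27e-09). CEBPB rose by 1.65 with C3/C2 and 1.91 with SN, and NFKB1, which encodes a subunit of NF-kB, fell by 1.50 and 1.55. These lists were chosen with results of the same data known, and no list was tested as a set.

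The genes whose levels followed those of a member most closely over the 24 arrays were found among 11745 genes well above background on all arrays. For TNFRSF10B they were ZFYVE27 (Pearson r = 0.987), PPP6R2 (0.983) and TNKS1BP1 (0.981), and for TNFRSF10D they were F3 (0.981), BBC3 (0.981) and DCUN1D3 (0.968). TNFSF10 was followed by POLR2A (0.970), GPRIN2 (0.957) and TXNIP (0.929), FAS by C1QTNF6 (0.987), FEZ2 (0.977) and PUS7 (0.976), TNFRSF10A by TCOF1 (0.945), and TNFRSF10C by MAPK11 (0.979). TNFRSF10C itself was well above background on only 15 of the 24 arrays, so that its value rests partly on background signals. The closest genes to TNFRSF11B and TNFRSF1A were NFS1 (0.916) and SLC17A9 (0.887). The arrays fall into 6 groups and share slides, so these values describe likeness across groups and carry no test.

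The scaling of the arrays moved all differences of a comparison together. When arrays were scaled to their median instead, the median over all probes shifted from 0.07 to −0.23 for C3/C2 and from 0.10 to −0.24 for TRAIL+C3/C2, and with the spike-in probes it was −0.59 in TRAIL+C3/C2 and, for the co-treatment with SN, −0.46. Under this shift TNFRSF10B stayed higher than NT in all 5 treatments under each of the 5 ways of processing, at 0.55 or more, and FAS probes 1 and 2 stayed lower in the 4 treatments with acids or supernatant. The plot of the 5 ways of processing shows which genes do not keep their side.

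**Figure D5:**
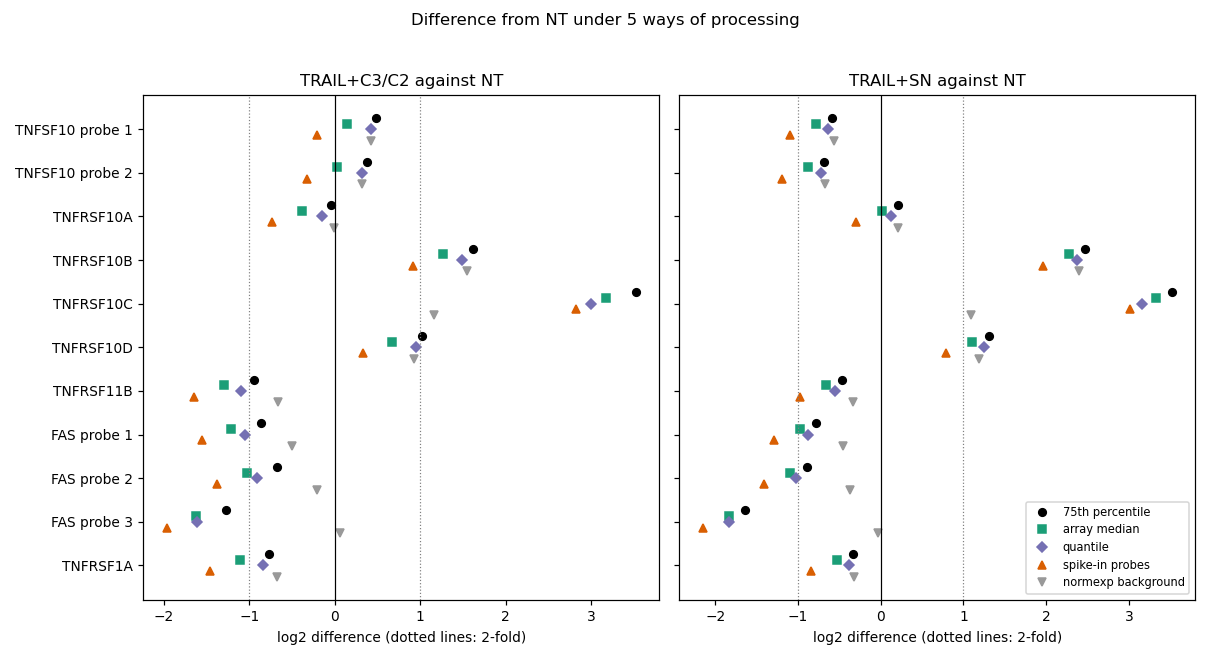
Log2 difference of each member probe from NT in TRAIL+C3/C2 (left) and TRAIL+SN (right) under 5 ways of processing, marked by symbol, with dotted lines at 2-fold. TNFRSF10B lies above 0 in each, at 0.92 to 1.61 and 1.96 to 2.47, whereas TNFSF10 in TRAIL+C3/C2 lies on either side of 0.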

How the data were processed

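Per the methods, the authors labelled RNA of 24 samples with Cy3 and read the arrays with Agilent software. The intensity the authors deposited for each spot is already corrected for background, but not normalized between arrays. Their series table holds the ratio of each deposited intensity to the array median (tested on the values) beside 24 flag columns that were not used. The raw spot and local background intensity deposited for each array served for an alternative, normexp correction.

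Controls and spots flagged as outliers (190 to 315 an array) were dropped. No spot was saturated. Log2 intensities were averaged over the spots of each probe and reduced by the 75th percentile of the array. A probe was kept if some group had it well above background on 4 of 4 arrays. All 12 member probes carry an accession that RefSeq lists under the same symbol, and probe positions are those in the files (hg19). A model with 6 group means (18 residual degrees of freedom) was fitted to all arrays in limma 3.58.1 under R 4.3.3, with Benjamini-Hochberg adjustment over all probes in each comparison, and was tested on simulated data. The number of arrays limits the precision. A gene with no array well above background in the dimmer group has only a bound on its fold. Named genes are the 8 members, list genes called against NT in at least 1 treatment, and the genes most like each member. The values of 1 list gene are not reported here. The members and lists were chosen with earlier results of these data known. Alternatives covered scaling, background, filter, outlier spots, threshold, slide, replicate number and single arrays. Blocking on numbers 1 and 2 against 3 and 4, the fit without slide 1, SN against TRAIL, and the comparison of SN and C3/C2 with and without TRAIL were added after seeing the data.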

Additional observations from a re-analysis of the deposited data

Results flagged for a closer look

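In 72 groups of 4 arrays, 1 array stood far from the others in 3, where chance alone flags about 1 in 20 groups. These were TRAIL+SN replicate 4 for TNFRSF10A, at a log2 level of −0.64 against −0.38 to −0.33 on the others, SN replicate 2 for TNFRSF10B, at 4.30 against 4.16 to 4.18, and NT replicate 1 for TNFRSF1A, at 0.0071 against 0.35 to 0.41. The last of these arrays lay on slide 1.

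The effect of TRAIL differed with and without another agent for 4 genes by limma's test of the interaction. FAS is among them through probe 2 alone, and the overlapping probe 1 did not pass with SN (−0.20, adjusted p = 0.419). Over all probes, 1.52% passed this test upwards and 0.905% downwards with C3/C2, and 10.1% and 11.5% with SN. With C3/C2 the log2 departure from the sum was 0.38 for TNFRSF10D and −0.52 for TNFRSF11B. That of TNFRSF10D with C3/C2 (adjusted p = 0.0497) was lost under each of the other ways of processing, and several of the other departures under some of them. With SN it was 0.47 for TNFRSF10D, −0.67 for TNFRSF11B, −0.54 for probe 2 of FAS and 0.71 for TNFRSF1A. For TNFRSF10D and TNFRSF11B the departures with C3/C2 and with SN share the NT and TRAIL arrays, so that they are not separate evidence. Slide and departure cannot be told apart in any of these.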

How the results depend on the processing

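Counts of called member probes depended on scaling, background correction and the limit of 2-fold. The share of all probes called was not counted under these settings, so the changes cannot be set against the whole array. With the array median, the median over all probes also moved, from 0.07 to −0.23 for C3/C2 and from 0.10 to −0.24 for TRAIL+C3/C2. With the array median, 5 in place of 3 were called for C3/C2, 7 in place of 4 for TRAIL+C3/C2 and 1 in place of 2 for TRAIL+SN against TRAIL+C3/C2, which was TNFRSF10B in place of both probes of TNFSF10. With the spike-in probes, 7 in place of 4 were called for TRAIL+SN, 1 in place of 2 for TRAIL+SN against TRAIL+C3/C2 (again TNFRSF10B), and 1 in place of 0 for each co-treatment against its own agent and for the interaction with SN. With normexp correction the counts were 0 for C3/C2, 2 for SN, 2 for TRAIL+C3/C2, 0 for TRAIL+SN against TRAIL+C3/C2, 0 for TRAIL+C3/C2 against TRAIL and 2 for TRAIL+SN against TRAIL. Among probes well above background on all arrays, which leaves out TNFRSF10C and FAS probe 3, they were 1 for C3/C2 and 2 each for SN, both co-treatments and TRAIL+C3/C2 against TRAIL. With 1 probe per gene they were 2 for SN, 1 for each comparison of supernatant with acids and 2 for TRAIL+C3/C2 against TRAIL. With no minimum fold they were 10, 10, 4, 10 and 11 against NT in the order C3/C2, SN, TRAIL, TRAIL+C3/C2, TRAIL+SN, 6 and 7 for supernatant against acids without and with TRAIL, 9 and 11 against TRAIL, 5 and 5 against the own agent, and 2 and 4 for the interactions.

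Some differences changed sign. With the spike-in probes, TRAIL+C3/C2 against NT was −0.21 and −0.32 for both probes of TNFSF10, TRAIL+SN against NT was −0.30 for TNFRSF10A, TRAIL+C3/C2 against C3/C2 was −0.0725 for TNFRSF10D, and TRAIL+SN against SN was −0.0392 for TNFSF10 probe 2, −0.0745 for TNFRSF10B and −0.0655 for TNFRSF10D. TNFRSF1A in TRAIL+SN against TRAIL was −0.0889 with the array median and −0.0506 with the spike-in probes, in place of 0.21, and FAS probe 3 in TRAIL+C3/C2 was 0.0613 with normexp. The cause was not tested.

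Leaving out 1 array gave 2 to 3 called probes for C3/C2, 4 to 5 for SN, 3 to 4 for TRAIL+C3/C2, 4 to 5 for TRAIL+SN, 0 to 2 for TRAIL+SN against TRAIL+C3/C2 and 4 to 5 for TRAIL+C3/C2 against TRAIL, and left the other counts as they were. FAS probe 3 in TRAIL+C3/C2 against TRAIL fell to −0.92 without TRAIL+C3/C2 replicate 3. The interaction of TNFRSF10D with C3/C2 had an adjusted p of 0.115 without slide 1 and that of TNFRSF11B one of 0.172. With the replicate number as a block, no call of a member changed, and over all probes 5473 in place of 5465 were called for C3/C2. For the interactions these counts were 232 in place of 170 with C3/C2 and 885 in place of 834 with SN. The main fit did not take the numbers as pairs, and the lowest correlation of same-numbered arrays was 0.063. However, 19 of 24 arrays correlated best with their own number. The median correlation between groups was 0.25 to 0.38 for equal numbers and −0.22 for different ones. It was 0.27 for numbers 1 with 2 or 3 with 4, and −0.30 for 1 or 2 with 3 or 4. Arrays of a group are therefore not fully independent. The fit of only the groups compared was not run for interactions, and slide as a fixed block could be fitted only to C3/C2 against NT.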
